A study of Homo sapiens with 16 samples.

Results

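The genes described here are 47 human genes that build and run the mitotic spindle, chosen by name from textbook roles: the mitotic cyclins with CDK1 and the enzymes that start mitosis, kinetochore and checkpoint proteins, spindle assembly factors, the chromosomal passenger complex, the anaphase ubiquitination machinery, central spindle and cytokinesis proteins, and chromosome structure proteins. The choice was made with earlier results of these data known. All 47 were among the 11282 genes of the deposited table, and all 47 passed the filter on low values that left 10826 genes for testing. They were measured in 16 libraries of HCC70, an established human cell line from a basal-like breast cancer. Cells in 96-well plates received short hairpin RNAs, which lower a chosen messenger RNA. The targets were KLF5, RBPJ, NFIB and FOXA1, each with 2 libraries that carried different hairpins. The 8 control libraries were 2 each of plko, shRFP, shLACZ and shLUC; plko is the name of the hairpin vector, and the others are named for a red fluorescent protein, the bacterial lacZ gene and luciferase, none of them a human gene. The libraries are named below by construct and number, such as KLF5 1. Every library came from the same parental line, so each group shares its background mutations, and the labels do not say whether the libraries of a group came from separate cultures.

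During mitosis, cyclin B bound to CDK1 condenses the chromosomes and breaks down the nuclear envelope, while Aurora A, TPX2 and kinesin motors shape the bipolar spindle. Kinetochores join chromosomes to microtubules, and the checkpoint kinases and MAD and BUB proteins hold back CDC20 and the anaphase-promoting complex until every chromosome is attached. Securin and cyclin B are then degraded, the central spindle forms around PRC1, and anillin, ECT2 and the kinesins of cytokinesis cut the cell apart. Most of these genes are transcribed late in the cell cycle, through promoters in which CCAAT boxes bound by NF-Y and a short downstream element, the cell cycle homology region, often occur together. In a bulk culture their messenger RNA is often read as a measure of dividing cells.

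The promoter letters of 4 members are shown. They are the members of smallest p over the comparisons of a target with the controls among those that hold TTTGAA in the window: PRC1 and CCNB2 fell with KLF5 hairpins, CENPA lay under the control range with KLF5, RBPJ and NFIB hairpins, and CDC20 lay over it with KLF5 hairpins. CENPF, CENPE and KIF20B, also described below, hold no TTTGAA in their windows, and AURKA has no entry. Each is the 250 bases before the transcription start in RefSeq, build GRCh38.p14, written 5′ to 3′ on the strand of the gene; the reads themselves were counted on GRCh37, per the submitters' processing notes. Capitals mark TTTGAA, the core of the cell cycle homology region, and CCAAT, each on either strand, so that they also appear as TTCAAA and ATTGG. PRC1 lies at chr15:90994536-90994785 on the minus strand, CCNB2 at chr15:59104896-59105145, CENPA at chr2:26785806-26786055 and CDC20 at chr1:43358731-43358980, these on the plus strand.
PRC1: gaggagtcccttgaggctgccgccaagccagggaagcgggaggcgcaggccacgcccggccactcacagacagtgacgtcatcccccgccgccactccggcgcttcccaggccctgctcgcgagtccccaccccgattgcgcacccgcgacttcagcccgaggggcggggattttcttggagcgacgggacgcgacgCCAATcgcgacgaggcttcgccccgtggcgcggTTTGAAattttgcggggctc
CCNB2: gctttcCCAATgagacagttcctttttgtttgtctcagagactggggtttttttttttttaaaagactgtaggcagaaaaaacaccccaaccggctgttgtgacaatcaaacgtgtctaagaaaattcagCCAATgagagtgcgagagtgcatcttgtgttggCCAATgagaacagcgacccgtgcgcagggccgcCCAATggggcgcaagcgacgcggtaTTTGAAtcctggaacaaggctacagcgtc
CENPA: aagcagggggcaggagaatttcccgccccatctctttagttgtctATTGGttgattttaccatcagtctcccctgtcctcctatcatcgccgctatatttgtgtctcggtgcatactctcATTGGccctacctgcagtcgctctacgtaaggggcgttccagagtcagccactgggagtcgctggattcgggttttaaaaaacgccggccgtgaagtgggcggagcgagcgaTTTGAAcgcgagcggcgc
CDC20: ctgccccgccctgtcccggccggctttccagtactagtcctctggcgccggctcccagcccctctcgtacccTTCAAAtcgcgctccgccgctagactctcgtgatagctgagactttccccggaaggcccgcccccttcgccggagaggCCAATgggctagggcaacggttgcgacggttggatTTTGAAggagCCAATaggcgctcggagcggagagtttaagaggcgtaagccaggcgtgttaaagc
In these windows the TTTGAA of PRC1 begins 20 bases before the start, that of CCNB2 29 bases and that of CENPA 18 bases before it, whereas CDC20 holds 2 matches, at 178 and 65 bases. CCNB2 has 4 CCAAT matches, CENPA and CDC20 have 2 each and PRC1 has 1. RefSeq promoters were matched for 40 of the 47 members, with 49 starts in all, since some genes have several. TTTGAA was found at 24 of the 49 member starts (49.0%), against 9.36% of the 13722 starts of genes in the deposited table and 13.3% of the 35116 starts in the whole promoter table. CCAAT was found at 34 of the 49 (69.4%), against 33.3% of the starts of genes in the table. The motifs can share at most 1 base. A match is a stretch of letters and no evidence of binding.

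The values are reads counted near the 3′ end of transcripts and scaled between libraries by the authors. The scaling could be undone, and plko 1 then had the fewest reads, 375713, and RBPJ 1 the most, 3090666, 8.23 times as many; the median library held 1164801.5. The 47 genes together held 2889 reads in plko 1 and 19220 in RBPJ 1, so a member in plko 1 rests on the fewest reads. The targeted messenger RNAs were below the mean of the 8 controls in all 8 target libraries, but to different extents. KLF5 was at 66.0% and 39.4% of the control mean in KLF5 1 and KLF5 2, RBPJ at 84.3% and 16.6%, NFIB at 61.8% and 10.97%, and FOXA1 at 22.8% and 54.8% in their own libraries. RBPJ in RBPJ 1 had a signal of 43.3, inside the control range of 43.1 to 68.4. NFIB was at 238 in NFIB 1 and lower, at 201, in RBPJ 2, both under the 309 to 607 of the controls. Basal epithelial markers were present, with all 13 listed genes in the table and KRT5 between 2085 and 4517. TP63, a transcription factor of basal cells, was at most 4.78. ESR1 and PGR, the hormone receptors of luminal tumours, were at most 10.7 and 6.15. The luminal hormone receptor list, with 8 of 9 genes in the table, summed to 335 (FOXA1 1) to 768 (RBPJ 2). Luminal genes other than these receptors were thus present.

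The share of each library's reads that came from the 47 genes was 0.769% in plko 1 and 0.817% in plko 2, the highest of all, and 0.577% to 0.676% in the 6 hairpin controls. It was 0.481% in RBPJ 2 and 0.478% in NFIB 1, the lowest of all. The remaining target libraries held 0.621% (KLF5 1), 0.664% (KLF5 2), 0.622% (RBPJ 1), 0.6254% (NFIB 2), 0.724% (FOXA1 1) and 0.686% (FOXA1 2). Of the 47 genes, 14 had their lowest value in NFIB 1 and 9 in RBPJ 2, while 17 had their highest in plko 1. As a median over the 47 genes of the log2 difference from the control mean, NFIB 1 was at -0.505 and RBPJ 2 at -0.377, and the other library of each target was nearer to the controls, NFIB 2 at -0.066 and RBPJ 1 at -0.139. The controls themselves ran from -0.202 (shLACZ 1) to 0.190 (plko 2), a spread of 0.130 (SD, n = 8).

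**Figure D1:**
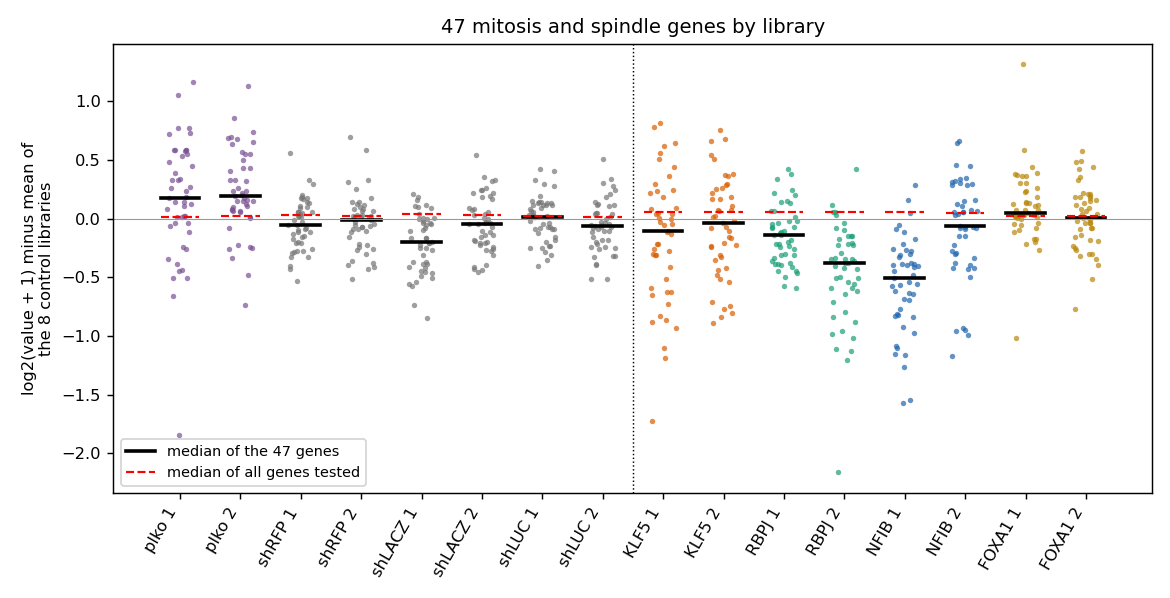
Each point is 1 of the 47 genes in 1 library; the y axis is log2(signal + 1) minus the mean of the 8 control libraries, black bars are medians of the 47 genes and dashed red bars are medians of all 10826 genes tested. NFIB 1 (-0.505) and RBPJ 2 (-0.377) have the lowest medians, and plko 1 (0.178) and plko 2 (0.190) the highest.

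Within the roles, the entry regulators had control means from 25.0 for CDC25C, the phosphatase that activates CDK1, to 291 for PLK1, the Polo kinase. Kinetochore and checkpoint genes ran from 31.7 for TTK, the MPS1 kinase, to 171 for CENPF, a large outer kinetochore protein, and BUB3, a checkpoint protein, was at 156 ± 15.5. Spindle assembly genes ran from 49.4 for HMMR to 249 for NUSAP1, which bundles microtubules. In the passenger complex AURKB, the Aurora B kinase, was at 134 ± 27.9 (SD, n = 8), BIRC5 (survivin) at 38.9 ± 9.98 and CDCA8 (borealin) at 105 ± 13.1. INCENP, its scaffold, was scarce: 0 in plko 1, where a single read is worth 2.21, and at most 7.90 elsewhere (FOXA1 1), so its differences rest on few reads. UBE2C, the ubiquitin-conjugating enzyme of the anaphase-promoting complex, was at 205 ± 36.6, ANLN (anillin) at 248 ± 37.7 and SMC4, a condensin ATPase, at 418 ± 154, the largest value of its role. These levels are not corrected for transcript length or capture and rank no gene against another.

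**Figure D2:**
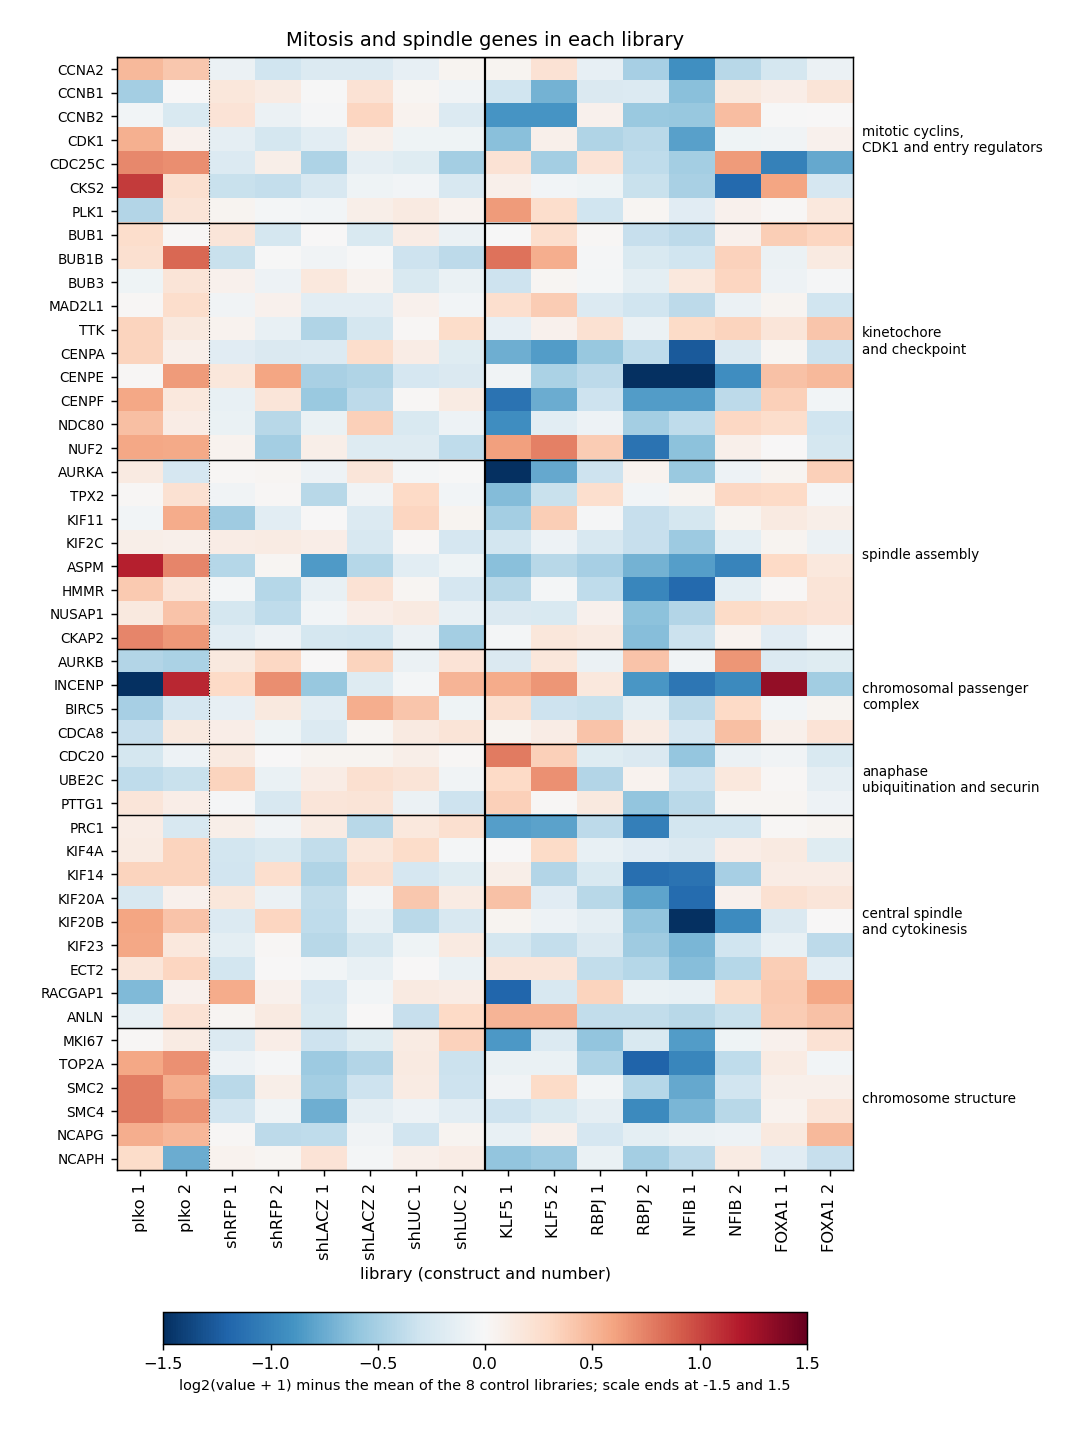
Rows are the 47 genes by role, columns the 16 libraries, and the colour is log2(signal + 1) minus the mean of the 8 control libraries, with the scale ending at -1.5 and 1.5. The columns of NFIB 1 and RBPJ 2 are mostly blue, those of KLF5 1 and KLF5 2 hold both colours, and in plko 1 and plko 2 the chromosome structure rows are mostly red.

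With KLF5 hairpins 4 spindle genes fell and the rest did not pass the test. AURKA, PRC1, CCNB2 and CENPF were lower than in the 8 controls, at 0.422 to 0.567 times the control level. KLF5 is a Krüppel-like transcription factor of epithelial cells. Each target was compared with the 8 controls by limma on log2(signal + 1), and a gene was called at an adjusted p under 0.05 over all 10826 genes. With KLF5 hairpins, 4 of the 47 genes were called lower and 0 higher, that is 4 of 47 where 5.37% of all genes were called in either direction and 3.07% were called lower. At unadjusted p under 0.05 there were 6 members higher and 10 lower. Here and below, counts at unadjusted p have no share of all genes beside them. The shares of genes called are for adjusted p and cannot be set against such counts. On the recovered reads edgeR called 4 lower and 0 higher, and DESeq2 4 lower and 1 higher. The genes that edgeR and DESeq2 called in all are given with the processing. The shares of all genes here and below are those of limma. Fewer cells in mitosis and less RNA in each such cell cannot be told apart in these bulk libraries.

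AURKA, the Aurora A kinase of the spindle poles, had a signal of 24.2 in KLF5 1 and 47.8 in KLF5 2, against a lowest control of 68.8, a median of 82.5 and a highest of 93.2. Its log2 difference was -1.24 ± 0.23 (SE), with a limma adjusted p of 0.00335. No control overlapped the KLF5 libraries, and the 2 hairpins differed from each other: KLF5 1, with more KLF5 messenger left, had the lower AURKA. PRC1, which crosslinks the microtubules of the central spindle, was at 109 and 111 against controls from 146 to 230 (median 208), a log2 difference of -0.82 ± 0.20 with a limma adjusted p of 0.0164. CCNB2, cyclin B2, was at 83.2 and 82.8 against controls from 132 to 193 (median 151), a difference of -0.89 ± 0.23 with a limma adjusted p of 0.0241. For PRC1 and CCNB2 the 2 hairpins gave nearly the same value. CENPF was at 76.8 and 99.2 against controls from 113 to 249 (median 175), a difference of -0.92 ± 0.25 with a limma adjusted p of 0.0288; the 2 shLACZ libraries, at 113 and 126, were the controls nearest to it.

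These 4 genes belong to 4 roles, and no other member of those roles was called. CCNB1, the other B cyclin, was at 64.0 and 47.8 against 55.2 to 92.1 in the controls, so it overlapped them. Among the kinetochore genes CENPA, the centromeric histone, was at 29.1 and 26.8 against 41.9 to 61.8, a log2 difference of -0.78 ± 0.25 with a limma adjusted p of 0.0737. CDC20, the activator of the anaphase-promoting complex, was at 210 and 156 against 101 to 133, a difference of 0.57 ± 0.19 with a limma adjusted p of 0.0760. ANLN was at 350 in both KLF5 libraries against 192 to 303, and PLK1 at 451 and 347 against 212 to 330; their limma adjusted p were 0.103 and 0.171. NUF2, an arm of the kinetochore NDC80 complex, was at 106 and 117 against 47.9 to 104, just above plko 1 and plko 2. Both KLF5 libraries lay below the whole control range for 5 members (AURKA, PRC1, CCNB2, CENPF and CENPA), against 6.96% of all genes, and above it for 4 (CDC20, ANLN, PLK1 and NUF2), against 9.31%. The median over the 47 genes was -0.07, beside 0.05 over all genes tested, and 29 of 47 differences were negative. By library, 59.6% of members lay below the control mean in KLF5 1 and 53.2% in KLF5 2, beside 45.6% and 46.2% of all genes. Against the 6 hairpin controls the member medians were 0.043 in KLF5 1 and 0.061 in KLF5 2. All genes tested had 0.063 and 0.057 there, so the negative lean was seen only with plko among the controls.

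**Figure D3:**
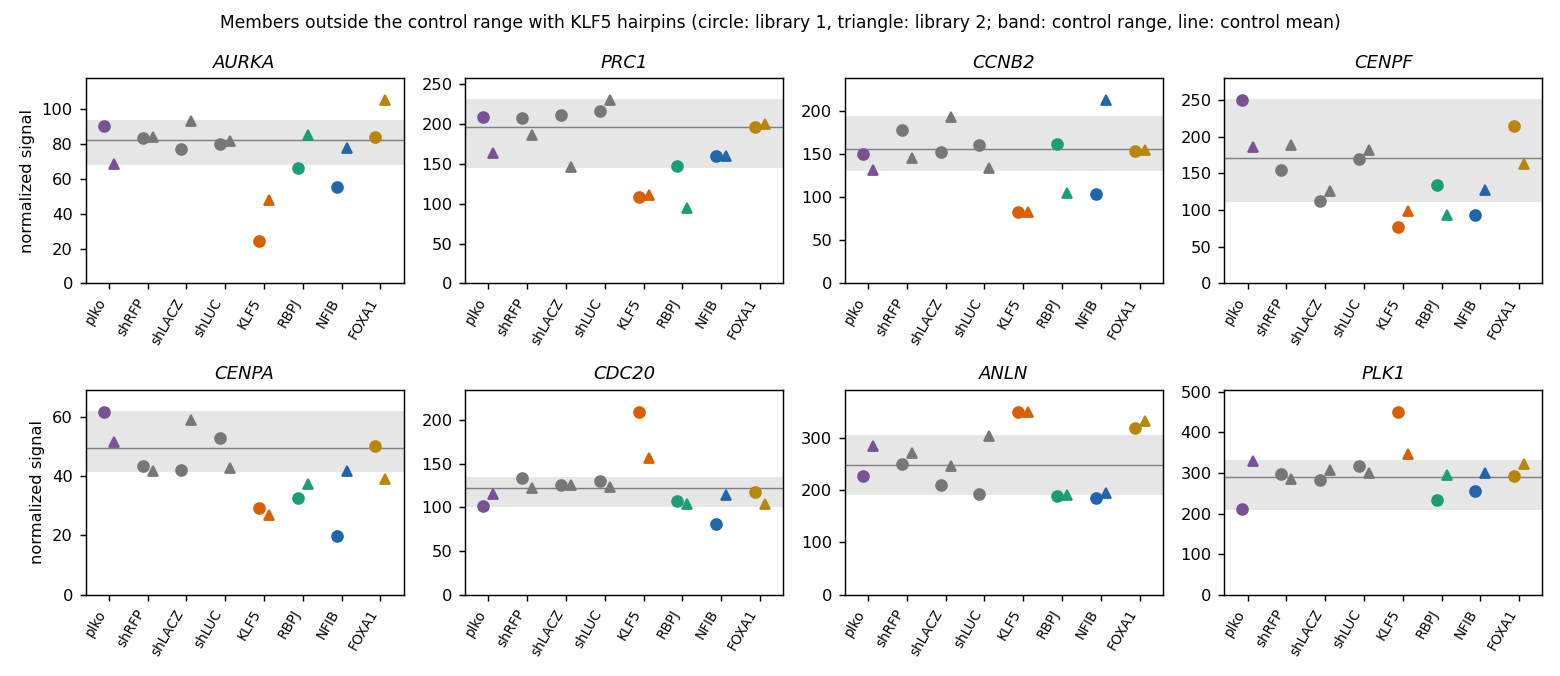
Each panel shows 1 gene, with the normalized signal on a linear axis from 0, circles for library 1 and triangles for library 2 of each construct, a grey band for the range of the 8 controls and a line for their mean. In the KLF5 libraries AURKA, PRC1, CCNB2, CENPF and CENPA lie under the band, and CDC20, ANLN and PLK1 over it.

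Apart from AURKA, the KLF5 calls needed both hairpins. With KLF5 2 left out, AURKA was the only member called in KLF5 1, at -1.72 ± 0.27 with a limma adjusted p of 0.00481 (0.918% of all genes called), and in KLF5 2 alone limma called 0 of 47 (0.807% of all genes), with 7 at unadjusted p under 0.05. In KLF5 2 alone AURKA was at -0.77 with an adjusted p of 0.220. With libraries weighted by their quality, limma called 9 members for KLF5, where 12.5% of all genes were called. Against the 6 hairpin controls, with plko as a group of its own, 6 members were called where 11% of all genes were: the same 4 lower, and BUB1B, a checkpoint kinase, and NUF2 higher by 0.86 ± 0.21 and 0.88 ± 0.28. Against plko, with the hairpin controls kept in the fit as a group of their own, 5 were called (3.44% of all genes): AURKA and CENPF, with ASPM and SMC4 also lower and UBE2C higher. PRC1 and CCNB2 were at -0.75 each against plko and were not called, with limma adjusted p of 0.0850 and 0.125. With the hairpin controls left out of the fit, limma called 0 members against plko (0.00944% of all genes), with 15 at unadjusted p under 0.05. In the KLF5 libraries the fibroblast and endothelial list, of which 5 of 11 genes are in the table and COL3A1, PECAM1 and VWF are not, summed to 46.2 and 50.2, above the 13.2 to 31.5 of the controls. The part of that list in the result was not tested.

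With RBPJ hairpins no spindle gene passed the test, and 42 of the 47 lay below the control mean. By library, 35 members lay below it in RBPJ 1 and 42 in RBPJ 2, beside 43.8% and 46.0% of all genes. The drop was larger in RBPJ 2, with a member median of -0.377 against -0.139 in RBPJ 1. Against the 6 hairpin controls 27 members lay below in RBPJ 1 and 42 in RBPJ 2, beside 44.4% and 46.3% of all genes. The member medians were -0.097 and -0.308 there, so part of the lean in RBPJ 1 came with plko among the controls. RBPJ is the DNA-binding factor of the Notch pathway. Limma called 0 of 47, where 0.0277% of all genes were called; 8 members had an unadjusted p under 0.05, all negative, and edgeR and DESeq2 each called 0, with 11 at unadjusted p under 0.05. The median over the 47 genes was -0.26, beside 0.05 over all genes, and 89.4% of members were negative beside 43.9% of all genes. CENPE, the kinesin that carries chromosomes to the metaphase plate, was at 34.8 in RBPJ 1 and 9.48 in RBPJ 2, against controls of 32.4 to 71.9 (median 42.9), a log2 difference of -1.28 ± 0.36 with a limma adjusted p of 0.394. RBPJ 1 sat among the controls and RBPJ 2 at less than any of them. PRC1 was at 147 and 95.3 against 146 to 230, a difference of -0.71 ± 0.20 with an adjusted p of 0.389, again with RBPJ 1 inside the range. TOP2A, the topoisomerase that untangles sister chromatids, was at 125 and 74.4 against 118 to 279. HMMR, a spindle-pole adaptor of TPX2, was at 37.0 and 24.2 against 35.9 to 64.0, KIF14, a cytokinesis kinesin, at 46.0 and 24.2 against 39.4 to 68.4, and CENPF at 134 and 92.5. In each of these, RBPJ 1 overlapped the controls and RBPJ 2 did not.

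Both RBPJ libraries lay below the control range for 6 members, against 2.03% of all genes, and above it for 0, against 2.43%. These were ANLN (189 and 191 against a lowest control of 192), KIF20A (72.6 and 55.5 against 74.6), the cytokinesis gene ECT2 (114 and 110 against 122), CENPA (32.6 and 37.5 against 41.9), the checkpoint protein MAD2L1 (64.4 and 60.2 against 66.2) and CDK1 (150 and 155 against 171). The margins for ANLN and KIF20A in RBPJ 1 are small beside the spread of the controls. Taken alone, RBPJ 2, which had 16.6% of the RBPJ messenger left, had 2 members called lower where 1.31% of all genes were called: CENPE at -2.16 ± 0.40 with a limma adjusted p of 0.00539, and PRC1 at -1.02 ± 0.25 with 0.0427. RBPJ 1 alone, with 84.3% left, had 0 called by limma (0% of all genes) and 0 members at unadjusted p under 0.05. Against plko, with the hairpin controls kept in the fit, 5 members were called lower (2.52% of all genes), namely ASPM, SMC4, TOP2A, CKAP2 and CENPE. With the hairpin controls left out limma called 0 (0.00944%), with 20 at unadjusted p under 0.05. Against the 6 hairpin controls 0 were called, where 0.0277% of all genes were called, with 6 at unadjusted p under 0.05.

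NFIB hairpins gave a like picture from the other library: no member passed, 39 of 47 were below the control mean, and the lowest values were in NFIB 1. NFIB is a nuclear factor I transcription factor. Limma called 0 of 47, where 0.00924% of all genes were called; 13 members had an unadjusted p under 0.05, all negative, edgeR called 0 and DESeq2 called 1, each with 15 at unadjusted p under 0.05. The member median was -0.27 beside 0.05 over all genes. Against the 6 hairpin controls the member median was -0.444 in NFIB 1 and 0.031 in NFIB 2, with 43 and 22 of 47 members below. Of all genes tested 45.7% and 46.1% lay below there, so NFIB 2 had no lean below the hairpin controls. KIF20B, a kinesin of late cytokinesis, was at 20.5 in NFIB 1 and 32.1 in NFIB 2, against controls of 47.3 to 94.9 (median 56.1). Its log2 difference of -1.26 ± 0.27 had a limma adjusted p of 0.240, and both libraries were well apart from the controls. CENPE was at 15.03 and 23.6 against 32.4 to 71.9, a difference of -1.24 ± 0.36 with an adjusted p of 0.474. CCNA2, cyclin A2, was at 75.2 and 107 against 116 to 201, and CKS2, a small CDK1 subunit, at 112 and 69.2 against 122 to 327. CKS2 was lower in NFIB 2 than in NFIB 1, unlike most members. KIF14 was at 24.6 and 38.0 against 39.4 to 68.4, and CENPA at 19.8 and 41.8 against 41.9 to 61.8, so NFIB 2 was just under the range for both.

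Both NFIB libraries lay below the control range for 7 members (KIF20B, CENPE, CCNA2, CKS2, KIF14, CENPA and ECT2, the last at 94.3 and 109), against 2.85% of all genes, and above it for 0, against 3.28%. NFIB 1, which kept 61.8% of the NFIB messenger, had 44 of 47 members below the control mean, and NFIB 2, which kept 10.97%, had 24. Limma called 0 members in NFIB 1 (0% of all genes), with 17 at unadjusted p under 0.05, and 0 in NFIB 2 (0.00931% of all genes), with 3. The hairpin that left less NFIB messenger was thus the one whose spindle genes stayed nearer to the controls. Against plko, with the hairpin controls kept in the fit, 11 members were called lower (5.27% of all genes), ASPM and KIF20B foremost at -1.86 ± 0.29 and -1.77 ± 0.28, with SMC4, CKS2, TOP2A, SMC2, CENPE, KIF14, CCNA2, CENPF and ECT2. With the hairpin controls left out limma called 3, where 0.698% of all genes were called. Against the 6 hairpin controls 0 were called, where 0.00924% of all genes were, with 13 at unadjusted p under 0.05.

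**Figure D4:**
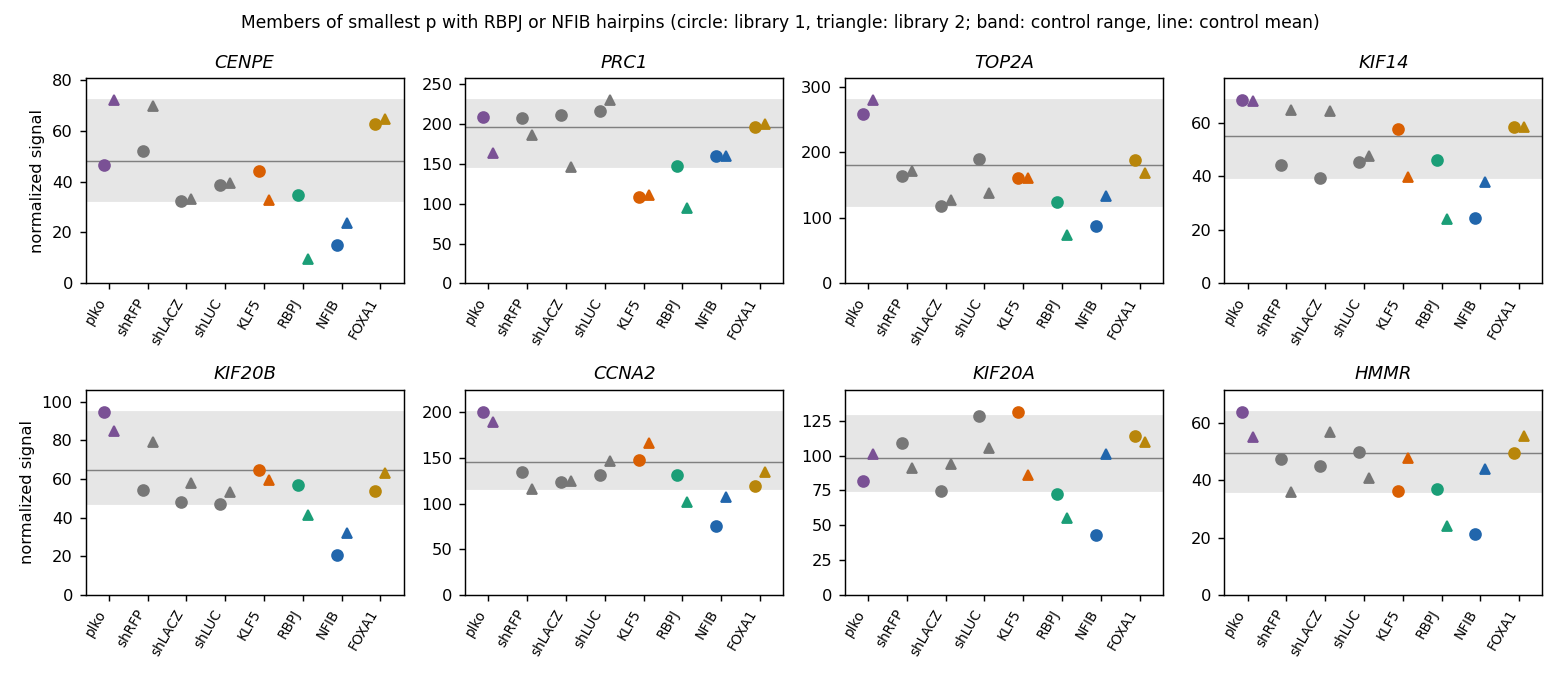
Each panel shows 1 gene, with the normalized signal on a linear axis from 0, circles for library 1, triangles for library 2, a grey band for the range of the 8 controls and a line for their mean. CENPE, KIF14 and TOP2A are lowest in RBPJ 2 and NFIB 1, and KIF20B lies under the band in both NFIB libraries (20.5 and 32.1).

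RBPJ 2 and NFIB 1 also stood out in the basal marker list of 13 genes, which summed to 11477 and 11860 there against 3804 to 9038 in the controls, and to 5101 in RBPJ 1 and 4913 in NFIB 2. FOXA1 1, with a sum of 10928, had spindle genes near the control level. In NFIB 1 and NFIB 2 the fibroblast and endothelial genes summed to 49.2 and 51.0 against 13.2 to 31.5. The part of these lists in the result was not tested.

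With FOXA1 hairpins no spindle gene passed the test, and few lay outside the control range. FOXA1 is a pioneer factor of luminal cells. Limma called 0 of 47, where 0.00924% of all genes were called, 2 members had an unadjusted p under 0.05, and edgeR and DESeq2 each called 0, also with 2 at unadjusted p under 0.05. CDC25C was at 11.2 and 13.5 against controls of 16.3 to 39.7, a log2 difference of -0.89 ± 0.36 with a limma adjusted p of 0.877, and was the only member below the range in both libraries, against 2.76% of all genes. ANLN, at 319 and 333 against 192 to 303, and BUB1, a checkpoint kinase, at 61.9 and 60.1 against 39.5 to 57.4, were above the range in both, against 2.31% of all genes. RACGAP1, the centralspindlin GTPase activator, was at 42.1 and 48.1 against 19.9 to 47.6, CENPE at 62.5 and 64.6, and NCAPG, a condensin subunit, at 61.2 and 78.1 against 41.9 to 81.6. The member median was 0.08 beside 0.00 over all genes. Taken singly, limma called 0 members in FOXA1 1 (0% of all genes) and 0 of the 46 tested in FOXA1 2 (0.241%), with 0 at unadjusted p under 0.05 in each. Against plko only CDC25C was called, at -1.60 ± 0.38 (0.647% of all genes), the member median was -0.14, and NCAPG was at -0.21, the opposite sign. With the hairpin controls left out limma called 0 (0% of all genes), with 6 at unadjusted p under 0.05. Against the 6 hairpin controls 0 were called where 0.00924% of all genes were, with 4 at unadjusted p under 0.05.

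The controls themselves were not alike in these genes. Compared with the 6 hairpin controls, the plko libraries had 9 of 47 members higher and 0 lower, where 7.5% of all genes were called in either direction and 1.88% were called higher; edgeR and DESeq2 each called 7 higher and 0 lower. Of the 6 chromosome structure genes, 4 rose: SMC4 by 0.96 ± 0.20, SMC2, the other condensin ATPase, by 0.88 ± 0.22, TOP2A by 0.84 ± 0.22 and NCAPG by 0.70 ± 0.20 on the log2 scale. MKI67, the proliferation marker, was at 154 and 166 against 122 to 193, inside the range, and NCAPH, another condensin subunit, was at 39.7 and 19.2, so the 2 plko libraries fell on opposite sides of the hairpin controls, which ran from 32.1 to 38.0. ASPM, a spindle-pole protein, had a signal of 128 and 94.8 in plko 1 and plko 2 against 31.0 to 57.5, the clearest gap, with a log2 difference of 1.27 ± 0.23 and a limma adjusted p of 0.00192. SMC4 was at 677 and 633 against 238 to 383, with an adjusted p of 0.00622. CKAP2, which stabilises spindle microtubules, was at 205 and 195 against 86.4 to 117, with an adjusted p of 0.00784.

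The other calls were CKS2, CCNA2 and BUB1B. CKS2 was at 327 and 185 against 122 to 153, a log2 difference of 0.86 ± 0.23. CCNA2 was at 201 and 190 against 116 to 147, a difference of 0.59 ± 0.18 with a limma adjusted p of 0.0485. BUB1B was at 104 and 160 against 66.7 to 87.8, a difference of 0.73 ± 0.21. For CKS2 and BUB1B the 2 plko libraries were far apart from each other, CKS2 high in plko 1 and BUB1B in plko 2. In the other direction AURKB was at 97.1 and 94.2 against 124 to 166, a difference of -0.61 ± 0.20 with a limma adjusted p of 0.0674. Both plko libraries lay above the 6 hairpin controls for 16 members, against 9.94% of all genes, and below them for 4 (AURKB, BIRC5, CDC20 and UBE2C), against 12.3%.

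**Figure D5:**
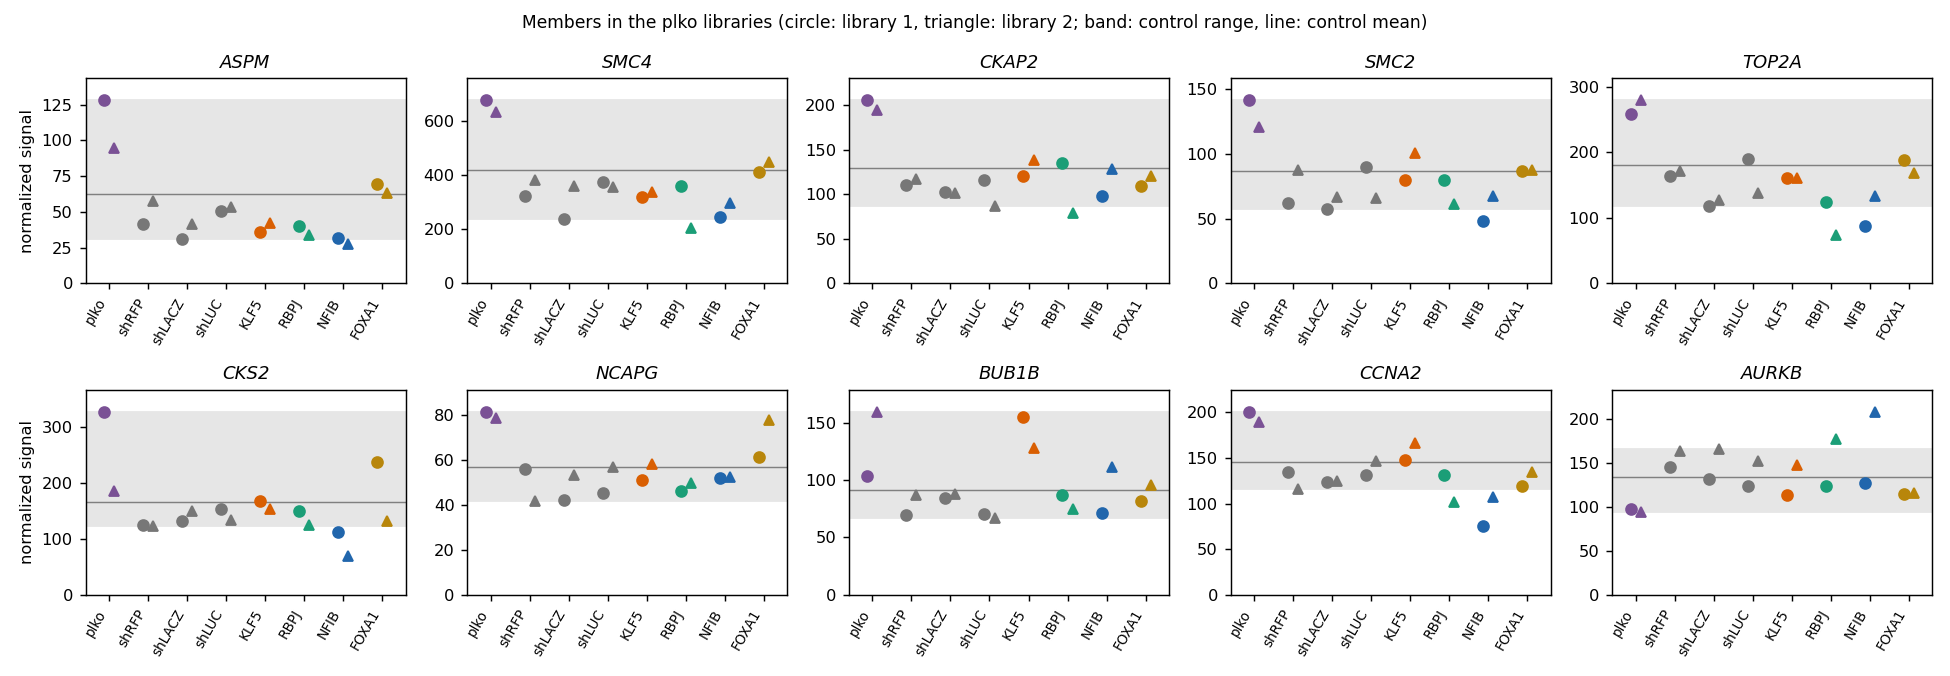
Each panel shows 1 gene, with the normalized signal on a linear axis from 0, circles for library 1, triangles for library 2, a grey band for the range of all 8 controls, plko included, and a line for their mean. The purple plko points are the highest controls for the first 9 genes and the lowest for AURKB (97.1 and 94.2).

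The plko calls did not hold without plko 1, the shallowest library. With it left out, plko 2 alone stands for the group, so the loss cannot be told apart from that of a smaller group. Without plko 1 the differences themselves were 1.06 for ASPM, 0.92 for SMC4 and 0.88 for CKAP2, all by limma. With libraries weighted by their quality 3 members were called, where 2.85% of all genes were called. The basal marker list summed to 3804 and 5859 in plko 1 and plko 2, below the 6186 to 9038 of the hairpin controls, and its part in the result was not tested. Since plko is 2 of the 8 controls, a target compared with all 8 is set against a mean that includes them.

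Where 2 targets were compared directly, 6 differences were called, all with KLF5 on 1 side. KLF5 and RBPJ differed in 2 members (1.79% of all genes), AURKA by -1.12 ± 0.29 and ANLN by 0.88 ± 0.23, with limma adjusted p of 0.0491 and 0.0497. ANLN was at 350 in both KLF5 libraries and at 189 and 191 in the RBPJ libraries, a wider gap than between the 2 libraries of any construct. CDC20, NUF2, UBE2C and PLK1 came next, at 0.77, 1.05, 0.68 and 0.58, and were not called. KLF5 and NFIB differed in 3 (2.79%): ANLN by 0.88 ± 0.23, CDC20 by 0.90 ± 0.24 and KIF20B by 1.24 ± 0.34, with adjusted p of 0.0410, 0.0418 and 0.0497. AURKA, ECT2 and CCNA2 followed at -0.93, 0.72 and 0.80, not called. KLF5 and FOXA1 differed in 1 (2.88%), AURKA by -1.44 ± 0.29 with an adjusted p of 0.0109, AURKA being 84.3 and 105 in the FOXA1 libraries. CENPF, PRC1, RACGAP1, CCNB2 and CDC20 were next in that comparison, with differences of -1.09, -0.84, -1.20, -0.89 and 0.71, and none was called.

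The calls against RBPJ and NFIB sit at the threshold. For KLF5 minus RBPJ, leaving out either FOXA1, NFIB, shLACZ, shLUC or shRFP library, KLF5 1 or RBPJ 2 left 0 called, leaving out KLF5 2 left 1, and leaving out RBPJ 1 gave 3; without the filter there were 0, and after quantile normalization 1. For KLF5 minus NFIB, the count was 0 without KLF5 1, either FOXA1 library, shLACZ 2 or either shRFP library, and 1 without KLF5 2, either NFIB library or either shLUC library. For KLF5 minus FOXA1 it was 0 without KLF5 1 or FOXA1 2, 2 without RBPJ 1 or shLACZ 1, 3 without RBPJ 2 and 4 without plko 1. The difference in ANLN stayed between 0.82 and 0.88 for KLF5 minus RBPJ in every alternative run, with the largest departure under quantile normalization.

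The pairs without KLF5 had 0 members called by limma: RBPJ minus NFIB (0% of all genes; 1 at unadjusted p under 0.05), RBPJ minus FOXA1 (0.0647%; 9) and NFIB minus FOXA1 (0.0277%; 12). By edgeR and DESeq2 they also had 0. Between RBPJ and NFIB the smallest p was for KIF20B, at 0.89 ± 0.34 with a limma adjusted p of 0.9999, and between RBPJ and FOXA1 for CENPE, at -1.74 ± 0.45 with 0.287. CENPE was likewise first between NFIB and FOXA1, at -1.70 ± 0.45 with an adjusted p of 0.316. ANLN was second in both, at -0.78 each, and PRC1, TOP2A, KIF20A and CENPF (RBPJ minus FOXA1) ran from -0.88 to -0.73, while KIF20B, CKS2, ECT2 and KIF14 (NFIB minus FOXA1) ran from -1.15 to -0.64. Between RBPJ and NFIB, PRC1, CKS2, BUB3, CCNA2 and SMC2 differed by -0.43, 0.63, -0.33, 0.36 and 0.30, within 2 standard errors. The FOXA1 libraries had CENPE at 62.5 and 64.6, and all 4 RBPJ and NFIB libraries had it at 34.8 or less. With RBPJ 1 left out, RBPJ minus FOXA1 had 1 member called.

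By role, the 9 central spindle and cytokinesis genes had a median log2 difference from the 8 controls of -0.38 with RBPJ and -0.50 with NFIB hairpins, and the 6 chromosome structure genes -0.36 and -0.49. Set against the 6 hairpin controls, the central spindle medians were -0.31 and -0.37 and those of chromosome structure -0.34 and -0.31, with NCAPG at 0.09 with NFIB; the mitotic cyclins and entry regulators were at -0.18 and -0.32 there. The 4 passenger complex genes had medians of -0.04 and 0.03 against the 8 controls, which include plko. Against the 6 hairpin controls AURKB, INCENP, BIRC5 and CDCA8 were at 0.02, -0.48, -0.37 and 0.24 with RBPJ hairpins. With NFIB hairpins they were at 0.15, -1.14, -0.17 and 0.07. AURKB was at 177 in RBPJ 2 and 208 in NFIB 2, above the 166 of the highest control. In RBPJ 1 and NFIB 1 it was at 124 and 127, inside the control range and below the control mean of 134. With KLF5 hairpins the 3 anaphase genes, CDC20, UBE2C and PTTG1 (securin), had a median of 0.49 against the 8 controls, and none was negative. The 8 spindle assembly genes had -0.22, 7 of them negative. Against the 6 hairpin controls CDC20, UBE2C and PTTG1 were at 0.51, 0.37 and 0.24. The spindle assembly medians there were -0.314 in KLF5 1 and -0.073 in KLF5 2, and KIF11 and CKAP2 were positive with KLF5. In NFIB 1 the role medians ran from -0.73 (chromosome structure) to -0.32 (passenger complex), and in NFIB 2 from -0.30 (central spindle) to 0.37 (passenger complex). Roles hold few genes, and no difference between them was tested. Of the 47 genes, 20 were neither called in any of these comparisons (each target with all 8 controls, plko with the hairpin controls, and the pairs of targets) nor outside the control range in both libraries of a target. They were CCNB1, BUB3, TTK and NDC80, the spindle genes TPX2, KIF11, KIF2C, HMMR and NUSAP1, all 4 passenger genes, UBE2C and PTTG1, the cytokinesis genes KIF4A, KIF23 and RACGAP1, and MKI67 and NCAPH.

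The remaining mitotic genes of the table, 124 genes that include the anaphase-promoting complex, cohesin, inner kinetochore proteins and tubulins, were described for comparison. With KLF5 hairpins 6 of 124 were called higher and 4 lower, where 5.37% of all genes were called. KIF22, a chromosome-arm kinesin, was at 356 and 363 against 132 to 221 in the controls, a rise of 1.21 ± 0.21 on the log2 scale, and TUBB4B, a beta tubulin, rose by 0.87 ± 0.18. The kinetochore genes CENPX and CENPT rose by 0.89 ± 0.20 and 1.23 ± 0.29, and TACC3, a partner of Aurora A on spindle microtubules, was at 172 and 202 against 99.97 to 125, a rise of 0.73 ± 0.17, while AURKA itself fell. FBXO5, the inhibitor of the anaphase-promoting complex known as EMI1, rose by 0.80 ± 0.24. ENSA, an inhibitor of the mitotic phosphatase PP2A, was at 139 and 148 against 227 to 434, and fell by 1.15 ± 0.21, and CDC27, a subunit of the anaphase-promoting complex, fell by 0.87 ± 0.23. CDC25A and CDC25B, phosphatases that activate cyclin-dependent kinases, fell by 1.40 ± 0.37 and 0.88 ± 0.25. With RBPJ, NFIB and FOXA1 hairpins limma called 0 of 124, with 6, 6 and 5 at unadjusted p under 0.05, and the list medians were -0.04, -0.05 and 0.01. By library the medians were -0.173 in NFIB 1, 0.038 in NFIB 2, 0.016 in RBPJ 1 and -0.033 in RBPJ 2, against -0.073 to 0.061 in the controls. In NFIB 1 the 124 genes summed to 10563, against 12046 to 13033 in the controls, and 63.7% of them lay below the control mean. The 47 genes had medians of -0.26 with RBPJ and -0.27 with NFIB hairpins; the difference between the lists was not tested.

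Of 48 tested genes of the G1/S transition and DNA replication, 1 was called higher and 6 lower with KLF5 hairpins, where 5.37% of all genes were called. E2F1, an activating E2F factor, was at 197 and 165 against 84.5 to 106, and rose by 0.90 ± 0.20, whereas E2F2 was at 16.4 and 26.8 against 45.8 to 95.9, and fell by 1.77 ± 0.27. TK1 (thymidine kinase), CDK4, CDC25A, LIG1 and UNG also fell. With RBPJ, NFIB and FOXA1 hairpins limma called 0 of 48, with 1, 3 and 1 at unadjusted p under 0.05. The list medians were 0.21 with RBPJ and 0.17 with NFIB, above 0, where the 47 spindle genes were below it. By library the list was at 0.093 in RBPJ 1, 0.217 in RBPJ 2, 0.201 in NFIB 1 and 0.146 in NFIB 2. The controls ran from -0.145 (plko 1) to 0.143 (shLUC 2), so RBPJ 1 lay inside them and NFIB 2 at their edge. All genes tested had medians of 0.048 to 0.060 in these RBPJ and NFIB libraries. The difference between the lists was not tested. In plko, 5 of the 48 were called lower than in the hairpin controls and 0 higher, where 7.5% of all genes were called: LIG1, MCM5, TK1, E2F2 and CCNE1. LIG1, DNA ligase I, was at 17.6 and 20.4 in plko against 39.6 to 74.6. Of the 124 mitotic genes, plko had 4 higher and 7 lower beside the same 7.5%, with the cohesin subunits SMC3 and RAD21 up by 1.10 ± 0.25 and 1.05 ± 0.25, and FOXM1 and MYBL2, transcription factors of late cell cycle genes, lower by -1.03 ± 0.22 and -0.87 ± 0.19.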

How the data were processed

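RNA of 16 HCC70 libraries was read as 3′ tags with a protocol based on CEL-Seq, barcoded in batches of 12 samples whose membership the labels do not give; some samples were run a second time, per the labels' protocols. The deposited table gives a signal per gene and library, reads scaled between libraries by the authors; reads were counted on GRCh37, as the submitters' processing notes have it; an aligner or a scaling method was not given in the sources used here. All of the deposited signal values (100%) were whole multiples of what 1 read is worth in their library, within 0.05 reads, so reads were recovered, 375713 to 3090666 per library. Symbols were found for 11259 of 11282 gene IDs, and 2 columns that match no described sample were not used.

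Genes with a signal of at least 5 in at least 2 libraries (10826; 456 removed) were tested with limma 3.58.1 (R 4.3.3) with a mean-variance trend on log2(signal + 1), which understates changes of low genes. All 16 libraries entered 1 fit with 5 levels, or 6 where plko was a group of its own, with Benjamini-Hochberg adjustment over all genes, 2-sided, at 0.05. A single hairpin was tested with the other library of its target left out, on the assumption that a lone library varies as the groups do. On the recovered reads, edgeR 4.0.16 (quasi-likelihood) called 632 genes for KLF5, 0 for RBPJ, 0 for NFIB, 1 for FOXA1 and 382 for plko, and DESeq2 1.42.0 called 780, 17, 11, 3 and 485. The fit was also run on simulated reads whose noise was set alike for all libraries, with changes only in the KLF5 libraries. The real pairs were less even. Chi-square per degree of freedom on reads was 18.8 between the RBPJ libraries, 9.50 for NFIB and 1.96 to 4.45 for the rest. The simulation therefore does not show how the fit treats such pairs. P-values measure only the spread between these libraries, which may be technical and, within a target, includes the different hairpins. Other alternatives are in the closing section.

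The 47 genes, the comparison lists and the tests were chosen with earlier results of these data known. Genes named are those called in a comparison, the 6 members of smallest p in each comparison between groups, the member of largest mean signal in each role, and of the other lists at most 6 called genes per comparison by p; members named for lying outside the control range, and list genes beyond the 6, were chosen after their values were seen. Promoters are RefSeq, GRCh38.p14.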

Additional observations from a re-analysis of the deposited data

Results flagged for a closer look

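Within the 8 control libraries, 6 of the 47 genes had a library far from the other 7, with a gap over Dixon's critical value, and all 6 of these libraries were plko. In plko 1, CCNB1 was low at 55.16, CDK1 was high at 297.8, CKS2 high at 326.5 and PLK1 low at 211.8. In plko 2, BUB1B was high at 159.9 and NCAPH low at 19.21. Chance alone flags about 1 in 20 groups.

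The called differences between targets were all with KLF5. ANLN differed by 0.8796 and AURKA by -1.1188 between KLF5 and RBPJ, and ANLN by 0.8833, CDC20 by 0.8995 and KIF20B by 1.2416 between KLF5 and NFIB, on the log2 scale. AURKA differed by -1.4402 between KLF5 and FOXA1.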

How the results depend on the processing

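Of 1632 recomputed values for single genes under the alternatives, 1485 kept their direction and their side of the threshold, 117 lost a call, 28 gained one and 2 reversed; of 384 recomputed counts and medians, 57 moved. With plko as the only control, KLF5 had 0 members called and a median of -0.4158, RBPJ a median of -0.5098, NFIB 3 called and -0.4258, and FOXA1 -0.1442. NCAPG with FOXA1 reversed to -0.2098 there, uncalled. With the hairpin controls kept as their own group, an alternative chosen after seeing the data, these medians and NCAPG (-0.2098) were the same, with 5 called for RBPJ, 11 for NFIB and 1 for FOXA1. Array weights called 9 for KLF5 and 3 for plko; DESeq2 called 1 for NFIB; KLF5 minus RBPJ had 0 without a filter and 1 after quantile normalization. In KLF5 1 alone, with controls that leave out plko, AURKA was at -1.74, RACGAP1 at -1.28 and BUB1B at 0.99. With all 8 controls they were at -1.72, -1.18 and 0.81. The cause of these moves was not tested.

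Leaving out 1 library at a time (for differences between targets this was chosen after seeing the data), members called ran from 0 to 5 for KLF5, 0 to 2 for RBPJ, 0 to 12 for plko, 0 to 3 for KLF5 minus RBPJ and for KLF5 minus NFIB, 0 to 4 for KLF5 minus FOXA1 and 0 to 1 for RBPJ minus FOXA1; they stayed at 0 for NFIB, FOXA1, RBPJ minus NFIB and NFIB minus FOXA1. Medians ran from -0.1143 to -0.0396 for KLF5, -0.3767 to -0.1386 for RBPJ, -0.505 to -0.066 for NFIB and 0.0138 to 0.1352 for FOXA1.

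Replicate numbers did not pair the samples: over 28 pairs of groups the correlation of number 1 minus number 2 had a median of 0.026, from -0.195 to 0.216, and 3 were over 0.1. With the replicate number as a block, 4 members were called for KLF5, 0 for RBPJ, NFIB and FOXA1, and 9 for plko, 8 of them higher. At 375713 reads in plko 1, a gene of low signal rests on few reads, INCENP on 0.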
